A study of Mus musculus with 2 samples.

Results

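The genes examined here encode 7 synaptic scaffold proteins, Magi1, Magi2, Magi3, Dlg1, Dlg2, Dlg4 and Dlgap1, and were chosen by symbol in the GENCODE M1 annotation of the mouse mm9 (NCBI37) genome, 7 of 37273 annotated genes and of 22367 protein-coding genes. For each gene, every R-loop peak that overlapped it by at least 1 bp was collected together with its position along the gene, and 25 of 22132 peaks were found in this way. The peaks mark R-loops in primary neural stem and progenitor cells (NSPCs) of C57BL/6 mice at postnatal day 7, mapped by DRIP-seq in cells that the paper describes as cultured under mild replication stress induced by aphidicolin, an inhibitor of replicative DNA polymerases. In DRIP-seq, genomic DNA is cut with restriction enzymes, the S9.6 antibody is used to pull down RNA:DNA hybrids, and the DNA bound in them is read by sequencing. The series holds 2 samples, the DRIP sample and its input, and 1 deposited list of peak positions. The input was not used here. The list carries no signal, read count or replicate column, so peak positions have no error, sequencing depth is unknown, and all values below are descriptions of a single list without a test. The list holds no measure of expression, so the identity of the cells could not be checked against markers.

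Members of the MAGI and DLG families are membrane-associated guanylate kinases, proteins that carry several PDZ domains and hold receptors, adhesion molecules and signaling enzymes together beneath the plasma membrane. The DLG proteins Dlg1 (SAP97), Dlg2 (PSD-93) and Dlg4 (PSD-95) anchor glutamate receptors at excitatory synapses, and Dlgap1 binds their guanylate kinase domain and links them to Shank proteins. MAGI proteins have the guanylate kinase domain at the other end of the protein and add WW domains, with Magi1 best known from epithelial junctions and Magi2 from synapses and the kidney filtration barrier. An R-loop is an RNA:DNA hybrid with a displaced single DNA strand, and it forms most readily where the RNA is rich in G and the non-template strand therefore carries an excess of G over C. R-loops are known from gene starts, gene bodies and gene ends of transcribed genes, and most of the genes considered here are long enough for these parts to lie far apart.

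All 7 genes contained at least 1 R-loop peak, compared to 39.6% of protein-coding genes and 27.1% of all annotated genes. The share with a peak rises with gene length, and was 68.2% for protein-coding genes of at least 300 kb, the class of Magi1, Magi2, Dlg2 and Dlgap1. It was 62.5% for genes of 100 to under 300 kb, the class of Magi3 and Dlg1, and 36.7% for genes under 100 kb, the class of Dlg4. A peak over the transcription start site (TSS, the 5′ end of the gene) was found in Magi2 and Dlg1, 2 of the 7 genes, compared to 14.9% of protein-coding genes. By length class, this share was 9.85% for at least 300 kb, 16.0% for 100 to under 300 kb and 14.9% for under 100 kb. A peak over the transcription end site (TES) was found in Dlg4 alone, 1 of 7, compared to 10.9% of protein-coding genes, and to 2.46%, 7.15% and 11.5% in the classes of at least 300 kb, 100 to under 300 kb and under 100 kb. Whether counts this small differ from the background shares was not tested.

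To illustrate the sequence beneath these peaks, the most G-rich stretch of 6 of the genes is shown. For each of these, the stretch of 60 bases in which G most outnumbered C on the coding strand was taken from the peak over its TSS, or from its widest peak where it had none there, outside annotated untranslated regions. They are written 5′ to 3′ in mm9 coordinates, and capitals mark runs of at least 3 G on the strand shown, the pattern associated with R-loop formation. Because each window was selected for its excess of G, its G content is not a finding.
Dlg1, chr16:31664777-31664836, plus strand: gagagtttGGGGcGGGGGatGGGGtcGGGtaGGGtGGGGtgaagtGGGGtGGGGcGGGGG
Magi1, chr6:93863093-93863152, minus strand: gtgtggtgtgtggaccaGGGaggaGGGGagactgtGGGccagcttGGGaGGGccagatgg
Dlg4, chr11:69854568-69854627, plus strand: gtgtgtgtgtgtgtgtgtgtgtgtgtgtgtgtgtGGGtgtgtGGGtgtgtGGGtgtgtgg
Dlgap1, chr17:70908689-70908748, plus strand: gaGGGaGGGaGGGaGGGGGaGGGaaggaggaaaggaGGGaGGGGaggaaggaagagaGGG
Dlg2, chr7:99291654-99291713, plus strand: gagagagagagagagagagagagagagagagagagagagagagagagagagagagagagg
Magi3, chr3:103833083-103833142, minus strand: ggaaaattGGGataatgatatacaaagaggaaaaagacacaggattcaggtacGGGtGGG
The Dlg1 window lay 1.28 kb downstream of the TSS in the first intron and held 41 G, 3 C and 9 runs of G. The Dlgap1 window, from an intronic peak 590 kb into the gene, held 40 G and 0 C with 8 runs, and the Magi1 window, 370 kb into the gene, held 32 G and 8 C with 5 runs. The Dlg2 window was a repeat of the letters GA along nearly its full length, and most of the Dlg4 window was a repeat of the letters GT. Over all 25 peaks, the window chosen in this way held at least 1 run of G in 68.0% and at least 3 runs in 44.0%, compared to 83.1% and 47.7% of the windows in other peaks of protein-coding genes. Among peaks lying only in genes of at least 300 kb, the shares were 57.9% and 26.3%, compared to 69.2% and 33.0% in the others.

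Simple repeats recurred in peaks that lay in introns. The share of 12-letter words that occurred more than once within the same peak was used as a measure of repeated sequence, a measure chosen after the sequences had been seen, and a peak was called repeat-rich when this share was at least 20%. For 4 of the 8 repeat-rich peaks, the 60 bases of the coding strand that hold the most frequent repeated words are shown in lower case, since no part is singled out, to make the repeat units visible.
Magi2, chr5:20178610-20178669, plus strand: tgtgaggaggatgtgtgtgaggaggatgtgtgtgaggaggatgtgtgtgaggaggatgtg
Dlgap1, chr17:71001878-71001937, plus strand: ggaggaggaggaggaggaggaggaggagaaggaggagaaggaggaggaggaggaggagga
Dlg2, chr7:98311355-98311414, plus strand: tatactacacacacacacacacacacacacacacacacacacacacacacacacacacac
Magi3, chr3:103833459-103833518, minus strand: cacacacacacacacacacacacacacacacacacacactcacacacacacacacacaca
The Magi2 sequence, from intron 22, repeated a longer unit of GAGGA and TGTG with 32 G and 0 C. The Dlgap1 sequence, from intron 6, was made of GGA units with 38 G and 0 C. The Dlg2 and Magi3 sequences were CA repeats on the coding strand, with 28 and 30 C and 0 G, so that here the template strand was the G-rich one.

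Among the MAGI genes, Magi1 (ENSMUSG00000045095), a scaffold of cell junctions, lies on the minus strand at chr6:93625449-94233316 and spans 608 kb. It contained 5 peaks, 8.23 per Mb, which covered 0.941% of the gene. Of the genes of at least 300 kb, 82.8% had fewer peaks and 13.3% had more. The TSS and the TES were both free of peaks, and the nearest peaks outside the gene were 36.9 kb upstream and 64.1 kb downstream. The first peak inside the gene, chr6:94015690-94016471, lay 217 kb from the TSS in intron 1, which is 340 kb long. The widest, chr6:93862861-93864490, was 1.63 kb wide and centred 370 kb into the gene at 60.8% of its length, where a pair of shorter annotated transcripts begin. It was also the peak with the highest GC content in Magi1, 53.4%, compared to 42.6% for the whole gene. The other 3 peaks were intronic, at 69.4%, 79.1% and 85.0% of the gene, with GC contents of 44.6%, 41.7% and 36.8%. Magi1 is thus a case in which the internal transcript start carried a peak and the start of the full-length transcripts did not. None of its peaks was repeat-rich, with repeated words between 0 and 2.72%.

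Magi2 (ENSMUSG00000040003), which encodes a synaptic scaffold also called S-SCAM, lies on the plus strand at chr5:18732864-20210616. It spans 1478 kb and contained 6 peaks, 4.06 per Mb, covering 0.481% of the gene. More peaks were found in 10.0% of genes of at least 300 kb, and a higher density in 33.5%. One peak lay at the 5′ end and the other 5 in the last part of the gene. The peak over the TSS, chr5:18729681-18733142, was the widest at 3.46 kb, but only 279 of its bases lay inside Magi2 and 3183 lay upstream. It also overlapped the noncoding gene 4921504A21Rik, which is annotated on the opposite strand. The GC skew of this peak, defined as G minus C over G plus C, was -0.144 on the coding strand of Magi2, and the excess of G thus lay on the strand from which 4921504A21Rik is read in the sense direction. The list gives no strand, so the 2 genes cannot be told apart as the source of this peak. A stretch of 1034 kb without a peak followed, which contained the other annotated transcript starts of Magi2 at 680, 681 and 1001 kb. The next peak, chr5:19767276-19767956 in intron 6, was repeat-rich with a GC skew of 0.65. The remaining 4 peaks lay at 79.4%, 95.9%, 97.8% and 99.8% of the gene. The peak at 97.8%, chr5:20178022-20179484 in intron 22, was the repeat of GAGGA and TGTG shown above and had a GC skew of 0.49. The last, chr5:20207373-20208829, overlapped coding sequence near the 3′ end and had the highest GC content of the 25 peaks, 64.2%, compared to 39.2% for Magi2 as a whole. It also overlapped a short separate gene model that carries the symbol Magi2 (ENSMUSG00000073174).

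Magi3 (ENSMUSG00000052539), a related scaffold of cell junctions, lies on the minus strand at chr3:103817182-104024297 and spans 207 kb. It contained 1 peak, chr3:103832945-103833695, which was 751 bp wide and centred 191 kb from the TSS, at 92.2% of the gene, in intron 15. This was the CA repeat shown above, and its GC skew of -0.44 was among the most negative of the 25 peaks. More peaks were found in 40.3% of genes of 100 to under 300 kb and fewer in 37.5%. The 3 annotated starts of Magi3 lie within 0.271 kb of each other and none was in a peak. Together, the 3 MAGI genes held 12 peaks in 2293 kb, or 5.23 per Mb.

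Among the DLG genes, Dlg1 (ENSMUSG00000022770), the gene for the broadly expressed scaffold SAP97, had a peak over its promoter and none elsewhere. It lies on the plus strand at chr16:31663529-31873436 and spans 210 kb, close to the length of Magi3. Its single peak, chr16:31663020-31665409, was 2.39 kb wide, began 509 bases upstream of the TSS and held the annotated starts of 7 transcripts. The peak had a GC content of 57.7%, an observed-to-expected CpG ratio of 0.811, as in CpG islands, and a GC skew of 0.08. A CpG ratio of 0.788 was found in the last Magi2 peak, far from any annotated start, and 0.415 in the peak over the Magi2 TSS. The remaining 208 kb of Dlg1 contained no peak, although 9 further annotated transcript starts lie there. Dlg1 and Magi3 therefore had the same number of peaks at opposite ends of genes of like length, in sequence of different kinds.

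Dlg2 (ENSMUSG00000052572), which encodes PSD-93, is the longest of the genes, on the plus strand at chr7:97650473-99595513 with a span of 1945 kb. It contained 3 peaks, 1.54 per Mb, and these covered 0.106% of the gene, both the lowest values among the 7 genes. By number of peaks, 69.5% of genes of at least 300 kb had fewer, whereas by density 62.5% were higher. The peaks were narrow, 606, 573 and 883 bp, and lay at 34.0%, 43.5% and 84.4% of the gene in introns 5 and 16. None of the 15 annotated start positions of Dlg2 was in a peak, and the peaks lay 36.8 to 84.6 kb from the nearest one. The first peak, chr7:98311200-98311805, was the CA repeat shown above, with a GC skew of -0.64, the lowest of the 25 peaks. The last, chr7:99291489-99292371, had 90.6% purines on the coding strand and a GC skew of 0.82, and contained the GA repeat shown above. The middle peak, chr7:98496056-98496628, had a GC skew of -0.05 and 9.96% repeated words, which leaves it below the threshold for repeat-rich peaks.

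Dlg4 (ENSMUSG00000020886), the gene for PSD-95, stood at the other extreme. It is the shortest of the genes, on the plus strand at chr11:69830587-69859034 with 28.4 kb, and contained 3 peaks, 105 per Mb, which covered 41.5% of the gene. Of the protein-coding genes under 100 kb, 93.5% had fewer peaks and 2.96% had more, whereas a higher density was found in 14.4%. The peak chr11:69833462-69835420 lay in intron 3, 3.85 kb from the TSS. The next, chr11:69839957-69844662, was 4.71 kb wide and held the starts of Dlg4-006, Dlg4-009, Dlg4-010 and Dlg4-011. The third, chr11:69853884-69859354, was the widest of the 25 peaks at 5.47 kb, ran 320 bases past the TES and contained the start of Dlg4-007. GC contents were 54.8%, 56.5% and 56.8%, compared to 52.4% for the gene. GC skew was 0.18 and 0.15 in the first 2 peaks and -0.07 in the peak over the TES. The 5′ end of the gene itself was free of peaks, with 6 annotated start positions in its first 1.78 kb, none in a peak. The next peak downstream of the gene was 3.22 kb from its end. The 3 DLG genes together held 7 peaks in 2183 kb, 3.21 per Mb, a value that is set mainly by the length of Dlg2.

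**Figure D1:**
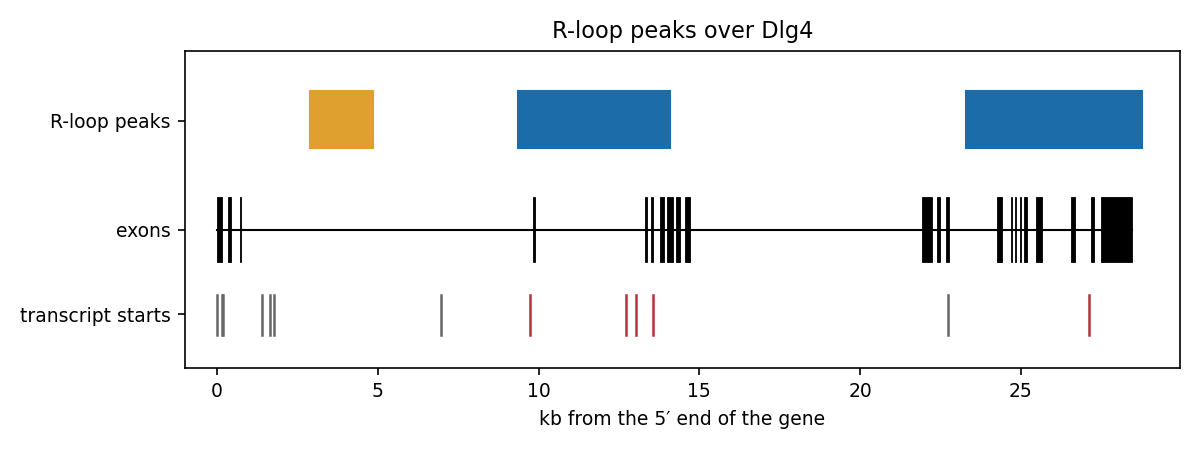
R-loop peaks over Dlg4, in kb from the 5′ end of the gene. The upper bars are the 3 peaks (blue with an exon, orange without), black boxes are exons of the longest coding transcript Dlg4-002, and ticks are annotated transcript starts, red where they lie in a peak. The peaks cover 41.5% of the gene, and the starts in its first 1.78 kb lie outside them.

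Dlgap1 (ENSMUSG00000003279), which encodes the postsynaptic density protein GKAP, lies on the plus strand at chr17:70318413-71170753 and spans 852 kb. It contained 6 peaks, 7.04 per Mb, which covered 0.715% of the gene, and 86.7% of genes of at least 300 kb had fewer. The 5′ end was free of peaks, and the closest peak upstream of the gene was 542 kb away. The first peak, chr17:70707010-70707194, lay 389 kb into the gene in intron 3 and was the narrowest of the 25 peaks, 185 bp. This peak had the highest GC skew, 0.92, in a sequence rich in GT. Peaks at chr17:70889367-70889841 and chr17:70907911-70909907 followed in intron 5, at 67.0% and 69.3% of the gene. The latter was 2.00 kb wide and ended 0.985 kb before the annotated start of Dlgap1-008. It supplied the Dlgap1 window with 8 runs of G shown above, although its GC skew over the full width was 0.09. The peaks at 80.2%, chr17:71001070-71002506, and at 82.6%, chr17:71021839-71022348, had 83.6% and 79.8% purines on the coding strand and GC skews of 0.71 and 0.62. The last, chr17:71109294-71110779, overlapped a coding exon at 92.9% of the gene with a GC content of 50.7% and a GC skew of 0.05. Of the 6 peaks in Dlgap1, 3 were thus repeat-rich and all of these had more G than C on the coding strand.

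**Figure D2:**
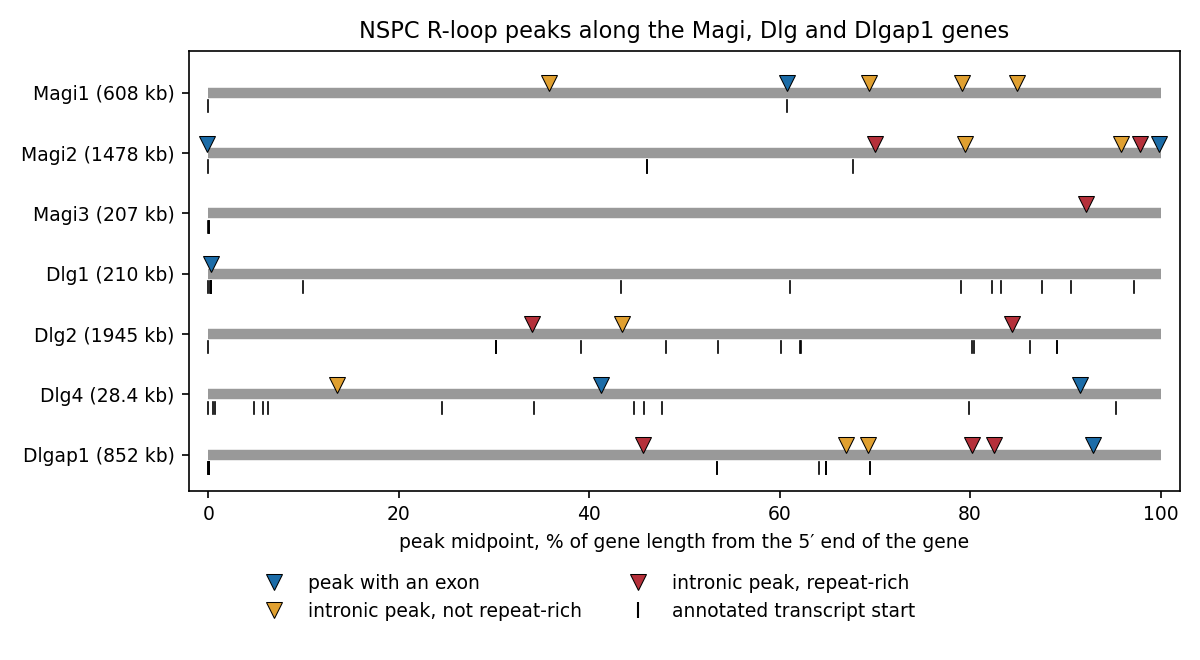
R-loop peaks along the 7 genes, with each gene drawn from its 5′ end to its 3′ end as percent of its length. Triangles are the midpoints of the 25 peaks, coloured by exon overlap and by repeated sequence, and ticks below each gene are annotated transcript starts. In Magi1, Magi2, Dlg2 and Dlgap1, no midpoint lies in the first 30% of the gene apart from the peak over the Magi2 TSS, whose midpoint is upstream of the gene. The bound of 30% was not set in advance.

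Gene length and peak density were set side by side, since a fixed number of peaks in a longer gene gives a lower density. The genes ranked Dlg4, Magi1, Dlgap1, Magi3, Dlg1, Magi2 and Dlg2 by peaks per Mb, at 105, 8.23, 7.04, 4.83, 4.76, 4.06 and 1.54. Magi3 and Dlg1 had 1 peak each, so that their order reflects length alone. The 4 genes of at least 300 kb held 20 peaks or 4.10 per Mb, compared to 4.88 per Mb for all 528 genes of that class pooled, and a median of 2.60 (quartiles 0 to 6.25) over these genes. Their peaks covered 0.430% of their bases, compared to 0.796% in the class pooled, which was above the median of 0.142% over its genes. Magi1, Magi2 and Dlgap1 lay above this median and Dlg2, at 0.106%, below it. Magi3 and Dlg1 together had 4.80 per Mb, below the 13.0 per Mb of their class pooled and its median of 7.35. Dlg4, with 105 per Mb, was above the 30.7 per Mb of the genes under 100 kb pooled.

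**Figure D3:**
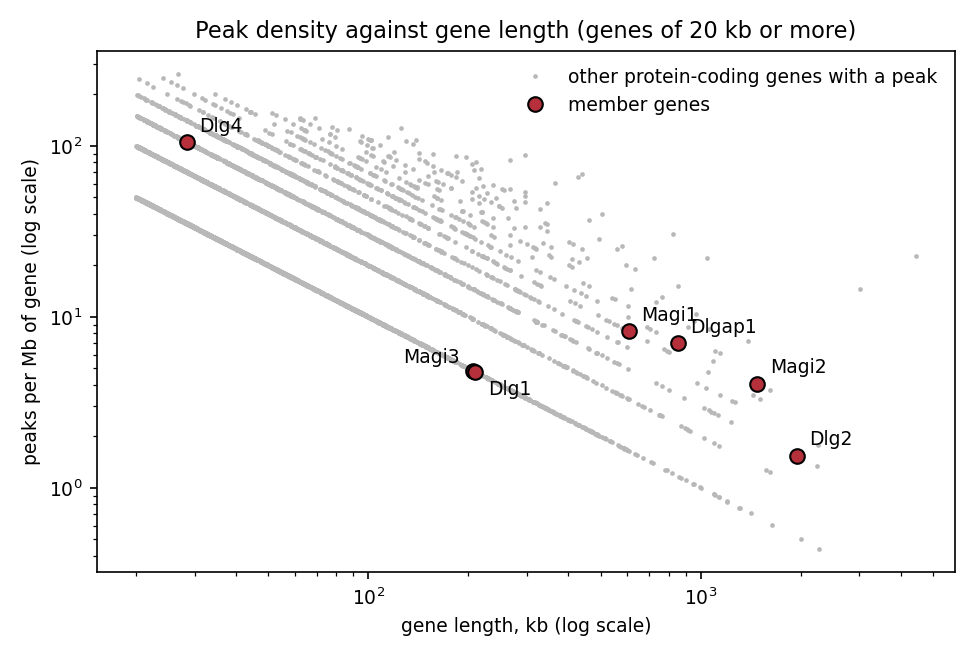
R-loop peaks per Mb of gene against gene length in kb, both on log scales, for protein-coding genes of 20 kb or more with at least 1 peak. Gray points are other genes, red points the 7 scaffold genes, and the diagonal lines of points are genes with equal numbers of peaks. Dlg4 sits at 105 per Mb, Magi3 and Dlg1 lie on the line of genes with 1 peak, and Dlg2, the longest, sits at 1.54 per Mb.

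In the 4 genes of at least 300 kb, peaks were found mostly towards the 3′ end. Of the 19 peak midpoints inside these genes, 15 (78.9%) lay past the middle of the gene and 0 in the first 30% of its length, whereas 51.1% and 34.6% of 1410 midpoints did so in the other 524 genes of this class. The bound of 30% was not set in advance, and the next 10% of the gene held 2 midpoints (10.5%), compared to 6.45% elsewhere. The last 10% of the gene held 4 midpoints (21.1%), compared to 15.7% elsewhere. All 5 peaks of Magi1 except the first lay past 60% of the gene, 5 of the 6 peaks of Magi2 past its middle, and 5 of the 6 peaks of Dlgap1. Dlg2 differed, with 2 of its 3 peaks before the middle. Peaks of the same gene are not independent, and the 19 midpoints come from 4 genes and 1 list. The distance from the TSS was 571 kb in the median over all 25 peaks. Measured to the nearest annotated transcript start instead, the median was 72.3 kb. Of the 66 start positions annotated in the 7 genes, 12 lay in a peak, and 5 of the 25 peaks contained a start, while 10 were more than 100 kb from the nearest one. With starts of any overlapped protein-coding gene counted, the share of peaks with a start was 24%, compared to 26.1% of other peaks in protein-coding genes. Among peaks lying only in genes of at least 300 kb, it was 10.5% in the scaffold genes and 5.34% in the others. The share of start positions in a peak was not computed for other genes.

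**Figure D4:**
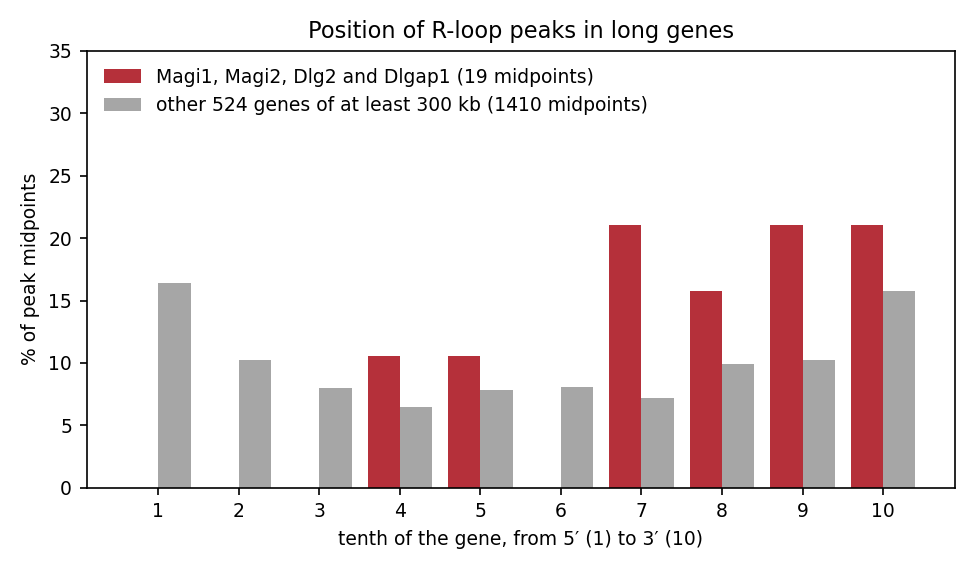
Share of R-loop peak midpoints in each of 10 equal parts of the gene, from 5′ to 3′, in percent. Red bars are Magi1, Magi2, Dlg2 and Dlgap1, 19 midpoints, and gray bars the other 524 protein-coding genes of at least 300 kb, 1410 midpoints. The first 30% of the gene, a bound not set in advance, holds none of the red midpoints and 34.6% of the gray ones.

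The peaks divided into those that overlapped an exon and those that lay wholly in introns. Exons were overlapped by 7 peaks, 6 of them with coding sequence, and 18 peaks (72.0%) contained no exon of any annotated transcript. This compared to 42.9% without an exon among the 16426 other peaks in protein-coding genes. The median width was 1.46 kb, with 10 peaks under 1 kb, compared to 1.68 kb, and the median GC content was 45.9%, with a range of 36.8 to 64.2%, compared to 49.5%. For a comparison within long genes, the 19 peaks that lay only in genes of at least 300 kb were set beside the 1273 other peaks of that kind, which leaves out the last Magi2 peak because it also overlaps a short gene model. Of these, 84.2% and 85.2% contained no exon, the median widths were 1.34 and 0.836 kb, and the median GC contents were 45.4% and 47.0%. In 21 of 25 peaks the GC content was above that of the gene around it, a share that was not computed for other peaks. GC skew on the coding strand was positive in 15 of 25 peaks (60%), compared to 66.2% of other peaks in protein-coding genes. More runs of G than of C were found in 16 of 25, and this count was not made for other peaks. Within long genes, the skew was positive in 57.9% of the 19 peaks and in 56.8% of the others.

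Repeat-rich sequence made up 8 of the 25 peaks (32.0%), all 8 of them in introns, and was found in Magi2, Magi3, Dlg2 and Dlgap1. In these 8 peaks, between 37.0 and 73.8% of 12-letter words were repeated, and in the other 17 at most 11.3%. Bins of 1.5 kb tiled over the same 7 genes outside the peaks were repeat-rich in 26 of 3501 cases, 0.743%. The measure is a share of a region's own words, so the same repeat weighs less in a wider region. These bins were wider than most of the repeat-rich peaks, of which 6 of 8 were under 1 kb. The shares in peaks and bins are therefore not like for like, and no bins matched in width were computed. With a threshold of 10% in place of 20%, these became 9 of 25 peaks (36.0%) and 115 of 3501 bins (3.28%). Of the other peaks in protein-coding genes, 9.72% were repeat-rich, or 14.8% at the lower threshold. Within genes of at least 300 kb, 7 of the 19 peaks (36.8%) and 30.3% of the 1273 others were repeat-rich, but at the lower threshold the order turned, with 42.1% and 43.4%. Among peaks without an exon in these long genes, the shares were 43.8% and 35.4%, and at the lower threshold 50.0% for both. Among peaks with an exon, they were 0% of 7 in the scaffold genes and 1.76% in other protein-coding genes. Repeat-rich peaks were narrower, with a median width of 0.716 kb compared to 1.59 kb for the other 17, and 6 of the 8 were under 1 kb. Since the measure itself favours narrow peaks, this difference in width is in part built into it. The same holds for the 0% among peaks with an exon, none of which was narrower than 1.46 kb. The widest Dlg4 peak, at 5.47 kb, had 2.99% repeated words although it held the GT repeat shown above. An absolute GC skew above 0.25 was found in 8 of 8 repeat-rich peaks and in 1 of the other 17, the Magi2 peak chr5:20149029-20150618 at -0.31. This cutoff was not set in advance, and the share of other peaks beyond it was not computed. In the other peaks of genes of at least 300 kb only, the quartiles of GC skew were -0.135 and 0.176. A repeat unit without C or without G, as in the sequences shown above, gives a strong skew by itself. The strand differed, since 6 repeat-rich peaks had more G than C on the coding strand, while the CA repeats of Magi3 and Dlg2 had more C. How many reads mapped uniquely to these repeats is not known from the list, and the part of mapping in these peaks was not tested.

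**Figure D5:**
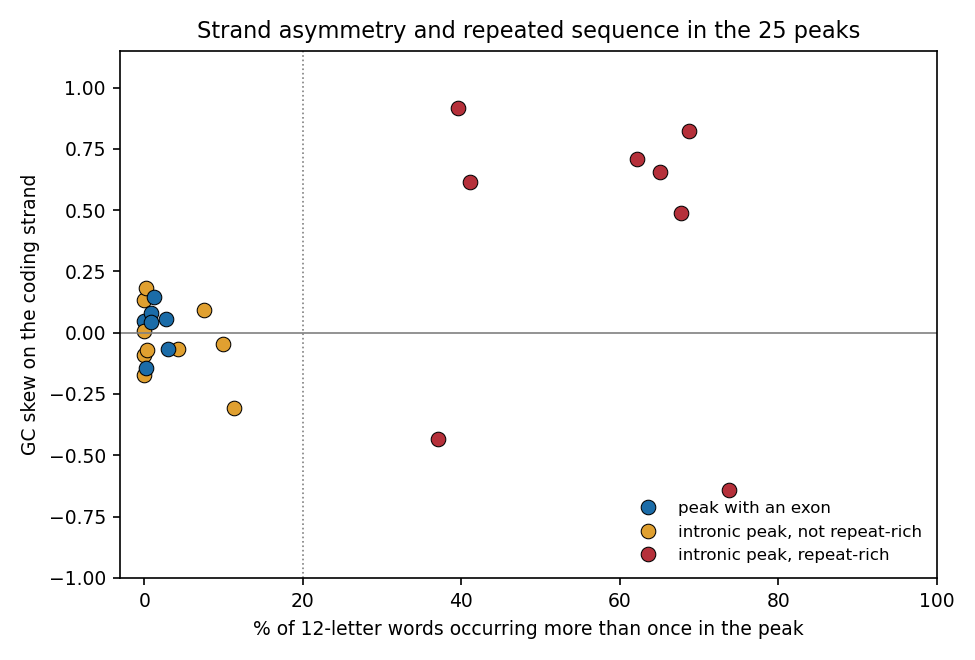
GC skew on the coding strand (G minus C over G plus C) against the percent of 12-letter words that occur more than once in the peak, for the 25 peaks. Points are peaks, coloured by exon overlap and repeated sequence, and the dotted line marks 20%. The 8 repeat-rich peaks lie far from a skew of 0, 6 above and 2 below, whereas 16 of the other 17 lie within 0.25 of it. Peaks outside the 7 genes were not counted at 0.25.

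Restriction sites bound what a DRIP peak can resolve. Of the 50 peak edges, 14 (28%) were within 100 bp of a site of one of the 5 enzymes used, which was close to the 27.8% of all 44264 edges in the list. The share at arbitrary positions was not computed, and whether digestion set these edges was not tested. According to the paper, the DNA was also sonicated before library preparation.

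The 7 genes were set beside 28 other genes, mostly for postsynaptic and junctional scaffolds. Among them were the Shank, Homer, Lin7, Mpp and Tjp families and the remaining Dlg and Dlgap genes, not all of which encode synaptic proteins. Of these, 19 had a peak and 9 had none. The genes without a peak were Dlgap3, Dlgap5, Cask, Mpp3, Mpp5, Lin7c, Homer2, Begain and Cnksr2. The genes with the most peaks were Dlgap4 with 9, Dlg5 with 7, Sipa1l1 with 6, and Tjp1 and Shank2 with 4 each. By length class, a peak was found in 2 of 3 of these genes of at least 300 kb, 6 of 8 of 100 to under 300 kb and 11 of 17 under 100 kb. A peak over the TSS was found in 4 of the 28 and over the TES in 5. They had 14.3 peaks per Mb pooled, compared to 4.69 per Mb in the 7 genes, but the order depended on length. The values were 3.98 for these genes and 4.10 for the 7 genes in the class of at least 300 kb, 20.7 and 4.80 at 100 to under 300 kb, and 24.5 and 105 under 100 kb, where Dlg4 is the only one of the 7. Within the DLG-associated proteins, Dlgap4 and Dlgap1 had 9 and 6 peaks, Dlgap2, which is nearly as long as Dlgap1 at 752 kb, had 2, and Dlgap3 and Dlgap5 had 0.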

How the data were processed

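The authors trimmed reads with Trim Galore 0.6.6, aligned them to mm9 and, after removal of duplicates, used a Hidden Markov Model to define peaks. The deposited list holds peak positions in bp, 1 list for the DRIP sample, with no counts or signal. How the replicates were combined is not given in the sources used here. Positions were converted to 1-based coordinates and compared with GENCODE M1. An overlap counted from 1 bp. The symbol Magi2 is carried by 3 gene models, and the longest was used. The genes, the scaffold list and the classes of 300 kb and 100 kb were chosen with earlier results of these data known. All 7 genes and every peak in them are named, with up to 5 other scaffold genes by number of peaks and those without a peak. Repeated 12-letter words, their threshold and the sequences shown for them were chosen after seeing the data. Some sequences are not reported here. Steps were tested on simulated data. The paper describes biological replicates, but the list gives no values per replicate, so no tests were run. Calculations used Python 3.11.15, numpy 2.4.6 and matplotlib 3.10.9.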

Additional observations from a re-analysis of the deposited data

How the results depend on the processing

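Of 104 values recomputed with another choice, 92 stayed within 1.5 times the value given and 12 moved by more. None reversed, but most are counts, shares or densities, which cannot change sign, so this carries no information. For other genes, the 104 covered only the number of other scaffold genes with a peak and the share of genes of at least 300 kb with a peak. All further comparisons with other genes or peaks were not among them. Keeping only peaks of at least 1 kb had the broadest effect. It left 15 peaks in the 7 genes or 2.82 per Mb, with 3 in Magi1, 0 in Magi3, 0 in Dlg2 and 3 in Dlgap1, and it lowered the share of genes of at least 300 kb with a peak to 36.4%. The number of the 7 genes with a peak then fell to 5. Assigning peaks by midpoint, or by an overlap of most of their width, left 1 gene with a peak over the TSS, since most of the Magi2 peak lies upstream of the gene. Allowing 2 kb on each side, or using the longest transcript, gave 2 genes with a peak over the TES. The position of peaks moved from a median of 571 kb from the TSS to 72.3 kb when measured to the nearest transcript start. For repeat-rich peaks, alternatives chosen after seeing the data gave 9 with a threshold of 10% and 8 with words of 10 letters. The lower threshold moved the comparisons more, since repeat-rich bins outside peaks went from 26 to 115, and other peaks in long genes from 30.3% to 43.4%, above the 42.1% of the 19 peaks in Magi1, Magi2, Dlg2 and Dlgap1 that lay only in long genes. Depth limits these values in an unknown way, because a gene or region without a peak in a single list may have been below detection, and this was not tested.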
